A study of Mus musculus with 8 samples.

Results

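Genes of MHC class II antigen presentation were read in whole liver from mice fed DDC (3,5-diethoxycarbonyl-1,4-dihydrocollidine) and from mice on a standard diet. The 9 genes were taken by symbol from the 33467 genes of the deposited expression table. They are H2-Aa, H2-Ab1 and H2-Eb1, which encode class II chains; Cd74, the invariant chain; H2-DMa and H2-DMb1, the peptide editor; Ciita, the class II transactivator; and Cd80 and Cd86, the costimulatory ligands. Each symbol had a single entry, and all 9 genes passed the filter on low counts.

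All 8 mice were wild type C57BL/6J. The DDC group (n = 4) ate a diet with 1% DDC for 4 weeks, a porphyrinogenic compound used to model cholestatic injury and biliary fibrosis. The Control group (n = 4) ate a standard diet for as long. RNA from liver tissue was poly(A) selected and sequenced in bulk, and every library carried the same batch label. The labels give neither sex nor age.

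Class II molecules display peptides from engulfed proteins to CD4+ T cells. An alpha and a beta chain assemble on the invariant chain, proteases of the endosome trim that chain down, and H2-DM exchanges its last fragment for a peptide. Transcription of the chain, invariant chain and H2-DM genes depends on Ciita, which is induced by interferon-gamma. Ciita binds no DNA itself but joins RFX, CREB and NF-Y proteins on conserved promoter boxes. In liver, class II is known from dendritic cells, B cells, macrophages and Kupffer cells, and at low level from sinusoidal endothelium. C57BL/6 mice carry a defective H2-Ea gene, so H2-Eb1 transcripts in this strain are not paired with a surface I-E molecule.

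Depth ran from 61179103 to 81664058 counts per library. The hepatocyte marker list marked the tissue as liver in both groups. Its 6 genes summed to 55890 to 70649 CPM (counts relative to the scaled library total) in DDC libraries and 125184 to 153241 CPM in Control libraries. All 6 genes fell at an edgeR adjusted p under 0.05, as did 26.6% of all genes tested. With library totals alone 5 of the 6 fell, as did 1750 of 19535 genes. Library DDC 1 stood apart from DDC 2 to 4: it lay at -63.6 on the first principal component (62.0% of the variance), against -98.9 to -105 for the other DDC libraries and 89.4 to 103 for the Control libraries. Control 1 and 3 resembled each other more than they resembled Control 2 and 4 (chi-square per degree of freedom 13.5 between Control 1 and 3, 162 to 220 across). The scaling also matters here, because the 19535 genes tested had a median log2 fold change of 0.07 under TMM scaling and of 0.70 under library totals alone. Coordinates are on GRCm38. CPM values below are TMM-scaled, and every fold change sets DDC over Control.

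Promoters are shown because class II genes are known to share the boxes at which Ciita acts. RefSeq (GRCm38.p6) gave windows of 300 bases, from 250 before to 50 after the start, for 5 of the 9 genes. The letters searched on both strands were GNAACNNTGANG or GNAACNNNTGANG for an X-box-like run, and TGATTGG for the Y box, the CCAAT box in reverse; they were drawn up with these promoters in view. The windows of H2-DMb1 (chr17:34152941-34153240, plus strand), H2-Aa (chr17:34287774-34288073, minus strand) and H2-Eb1 (chr17:34305617-34305916, plus strand) held the X-box-like run followed by the Y box, both in capitals:
H2-DMb1: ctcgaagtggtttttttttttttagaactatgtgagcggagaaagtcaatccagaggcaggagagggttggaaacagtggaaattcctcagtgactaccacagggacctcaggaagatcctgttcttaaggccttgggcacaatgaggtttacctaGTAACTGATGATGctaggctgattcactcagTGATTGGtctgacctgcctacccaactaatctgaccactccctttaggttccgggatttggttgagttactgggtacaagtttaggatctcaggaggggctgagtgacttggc
H2-Aa: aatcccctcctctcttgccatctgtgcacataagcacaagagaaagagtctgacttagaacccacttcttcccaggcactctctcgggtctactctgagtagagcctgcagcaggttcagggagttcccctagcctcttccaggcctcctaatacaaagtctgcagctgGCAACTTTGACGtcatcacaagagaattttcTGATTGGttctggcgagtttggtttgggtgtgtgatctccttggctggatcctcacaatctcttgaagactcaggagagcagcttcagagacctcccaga
H2-Eb1: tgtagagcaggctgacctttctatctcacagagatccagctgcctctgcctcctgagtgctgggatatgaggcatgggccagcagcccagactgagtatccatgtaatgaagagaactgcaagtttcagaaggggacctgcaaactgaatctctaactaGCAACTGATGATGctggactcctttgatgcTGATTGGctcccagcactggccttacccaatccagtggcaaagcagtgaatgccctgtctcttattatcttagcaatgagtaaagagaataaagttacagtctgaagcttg
The X-box-like run began 94, 81 and 91 bases before the start in H2-DMb1, H2-Aa and H2-Eb1, and 18, 19 and 17 bases lay between it and the Y box. Of 32851 mouse windows of this length, 1.81% held the X-box-like run, 7.82% the Y box, 0.149% both, and 14 windows (0.0426%) held the run before the Y box on the gene's own strand. Besides the 3 genes shown, the 14 included H2-Ob, the beta chain of the H2-DM inhibitor H2-O. The rest were not among the class II genes read here, for example Elac2, Gla, Hspa14, Ip6k1 and Pih1d1. The windows of H2-DMa and Cd80 held neither run. A match is a description of letters and not a site, and no match says only that these letters were not in this window.

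All 9 class II genes were higher in DDC livers, by 2.76-fold to 5.05-fold, and for each gene every DDC library lay above every Control library. The call was an adjusted p under 0.05 in edgeR's quasi-likelihood test, adjusted over all genes tested. Among all 19535 genes 30.2% were higher and 26.6% lower by that rule, 56.8% in either direction. All 4 DDC libraries lay above all 4 Control libraries in 26.9% of genes, and the groups were apart in either direction in 52.6%. At least a 2-fold increase was called for all 9 genes and for 19.5% of all genes. The median log2 fold change of the 9 was 1.79, against 0.07 over all genes, and singly they stood 1.39 to 2.26 above that median. In bulk liver, more cells of a type and more RNA per cell cannot be told apart.

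**Figure D1:**
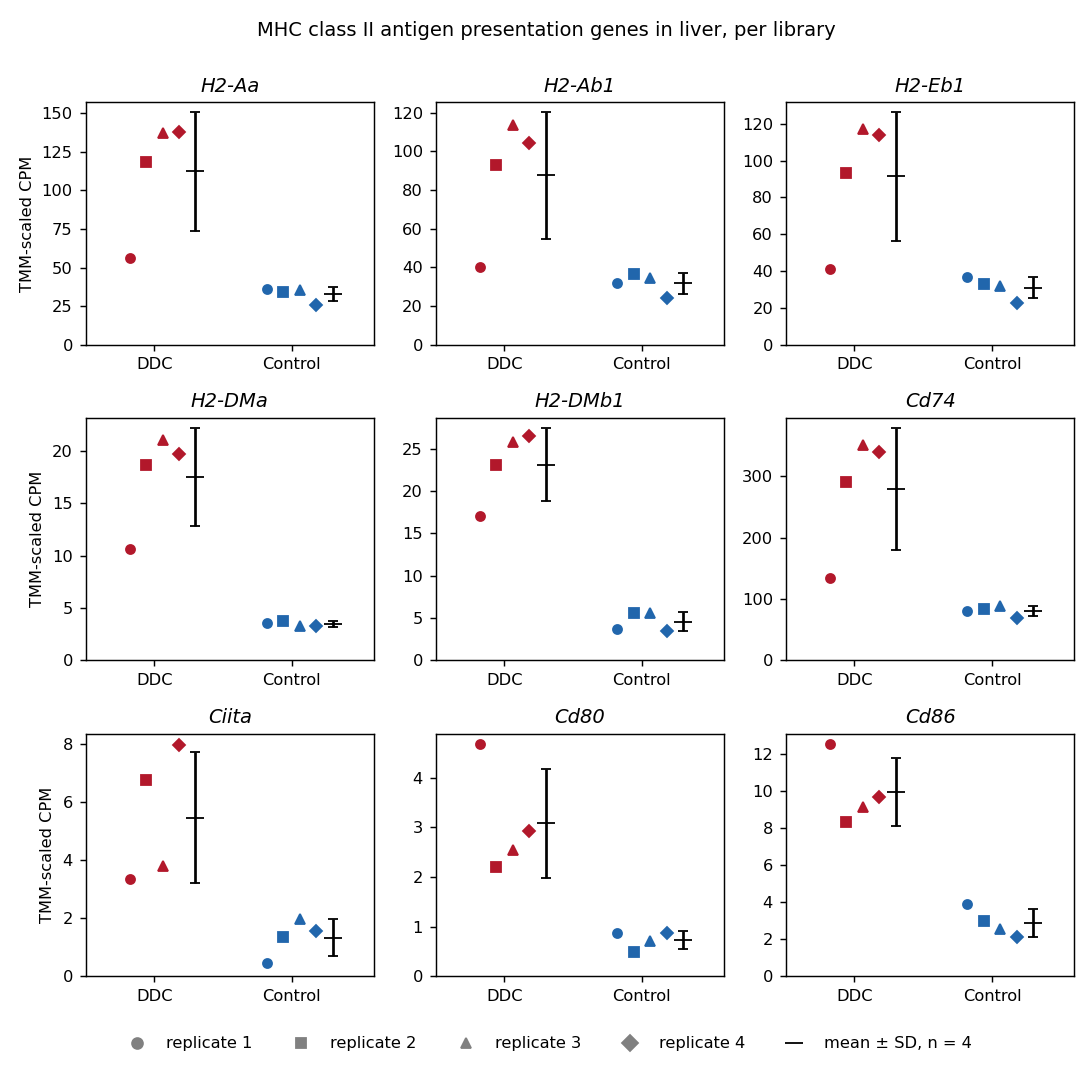
TMM-scaled CPM (y axis, from 0) of each of the 9 genes in the 4 DDC libraries (red) and the 4 Control libraries (blue), with the marker shape giving the replicate number and bars the mean ± SD. The groups were apart in every panel, and DDC 1 was the lowest DDC library in 7 panels and the highest for Cd80 and Cd86.

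The class II chains rose about 3-fold. H2-Aa (chr17:34282744-34287823, minus strand) encodes the alpha chain of I-A, the class II molecule of this strain. It had 56.2, 118, 137 and 138 CPM in DDC 1 to 4, against 35.9, 34.2, 35.6 and 25.9 CPM in Control 1 to 4. DDC 1 held less than the other 3 DDC libraries, yet more than any Control library. The mean was 112 ± 38.5 CPM in DDC and 32.9 ± 4.73 CPM in Control (SD, n = 4 each), a log2 fold change of 1.77 (SE 0.28, edgeR adjusted p = 0.000782).

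H2-Ab1 (chr17:34257689-34269419, plus strand) encodes the I-A beta chain. It had 40.0, 93.0, 114 and 104 CPM in DDC 1 to 4, against 31.9, 36.5, 34.5 and 24.1 CPM in Control 1 to 4. DDC 1 stood just above Control 2, the highest Control library. H2-Ab1 had the smallest rise of the 9 genes, 2.76-fold, with 87.7 ± 32.9 CPM in DDC and 31.7 ± 5.45 CPM in Control (log2 fold change 1.47, SE 0.31, edgeR adjusted p = 0.00455). H2-Eb1 (chr17:34305867-34316674, plus strand), the I-E beta chain, had 41.3, 93.2, 117 and 114 CPM in DDC livers, against 36.8, 32.8, 31.7 and 22.8 CPM in Control livers. It followed the same order of libraries within DDC as H2-Ab1, and rose 2.95-fold (log2 fold change 1.56, SE 0.32, edgeR adjusted p = 0.00397).

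Cd74 (chromosome 18) encodes the invariant chain, the chaperone that fills the groove of new class II molecules. It had 134, 291, 351 and 340 CPM in DDC 1 to 4, against 80.6, 83.2, 89.1 and 69.1 CPM in Control 1 to 4. DDC 1 was again the low DDC library. The mean was 279 ± 99.98 CPM in DDC and 80.5 ± 8.42 CPM in Control, a log2 fold change of 1.79 (SE 0.28, edgeR adjusted p = 0.000696).

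The genes of the peptide editor rose 5-fold, and their fold relative to the chains is given as a ratio further on. H2-DMa (chr17:34119541-34139101, plus strand) encodes the H2-DM alpha chain and had 10.7, 18.7, 21.0 and 19.7 CPM in DDC livers, against 3.59, 3.80, 3.29 and 3.28 CPM in Control livers. The Control libraries lay close together, and the lowest DDC library was well above all of them. The fold was 5.02 (log2 fold change 2.33, SE 0.20, edgeR adjusted p = 8.85e-06). Its annotated exons overlap those of Brd2, on the opposite strand, by 360 bases; the sources used here do not say if reads were counted by strand. Brd2 fell, with 132 ± 5.76 CPM in DDC livers and 189 ± 17.6 CPM in Control livers; with library totals alone its log2 fold change was 0.11 and was not called (edgeR adjusted p = 0.221).

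H2-DMb1 (chr17:34153072-34160230, plus strand), a beta chain of the editor, had 17.01, 23.05, 25.8 and 26.5 CPM in DDC 1 to 4, against 3.69, 5.55, 5.57 and 3.47 CPM in Control 1 to 4. DDC 1 was closer to the other DDC libraries here than for the class II chains. The fold was 5.05, the largest of the 9 (log2 fold change 2.34, SE 0.20, edgeR adjusted p = 9.32e-06). Of the 31-base runs of its transcripts 31.4% occur also in H2-DMb2, its near copy, so the split of reads between both is uncertain. H2-DMb2 itself rose, with 2.26 ± 0.355 CPM in DDC livers and 0.828 ± 0.216 CPM in Control livers.

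Ciita (chr16:10480059-10526426, plus strand) encodes the transactivator on which the genes of the class II chains, Cd74 and H2-DM depend. It had 3.33, 6.76, 3.80 and 7.96 CPM in DDC 1 to 4, against 0.446, 1.35, 1.96 and 1.57 CPM in Control 1 to 4. DDC 2 and 4 were high and DDC 1 and 3 low, a split that none of the class II chains had. The mean was 5.46 ± 2.25 CPM in DDC and 1.33 ± 0.642 CPM in Control, a fold of 4.10 (log2 fold change 2.03, SE 0.45, edgeR adjusted p = 0.00374). Control 1 rested on 23 reads, the fewest for any of the 9 genes in any library. Ciita exons overlap those of Dexi, on the opposite strand, by 329 bases, and Dexi fell (log2 fold change -0.68), a call lost with library totals alone (-0.06, edgeR adjusted p = 0.767).

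Cd80 and Cd86 are ligands on antigen-presenting cells that engage CD28 and CTLA4 on T cells. Cd80 (chr16:38455561-38496335, plus strand) had 4.67, 2.20, 2.55 and 2.92 CPM in DDC 1 to 4, against 0.873, 0.490, 0.704 and 0.867 CPM in Control 1 to 4. DDC 1, the low library for the class II chains, was the high one for Cd80. The log2 fold change was 2.07 (SE 0.32, edgeR adjusted p = 0.000412). Cd86 (chr16:36603869-36666081, minus strand) had 12.6, 8.32, 9.15 and 9.67 CPM in DDC livers, against 3.90, 3.00, 2.55 and 2.11 CPM in Control livers. Here too DDC 1 was highest, and the fold was 3.43 (log2 fold change 1.78, SE 0.21, edgeR adjusted p = 7.39e-05).

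Without DDC 1 all 9 genes were still called higher. The log2 fold changes were then 1.97 for H2-Aa, 1.68 for H2-Ab1, 1.78 for H2-Eb1, 2.00 for Cd74, 2.48 for H2-DMa, 2.44 for H2-DMb1 and 2.19 for Ciita, each larger than with it. Cd80 at 1.78 and Cd86 at 1.63 were smaller. The standard error of Cd74 fell to 0.10, against 0.28 with DDC 1. All 9 were also called higher when any other single library was left out.

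Per length, the order of levels was the same in both groups. In the deposited FPKM, Cd74 stood first with 199 ± 73.8 in DDC and 37.4 ± 4.38 in Control (SD, n = 4 each). H2-Eb1 followed with 56.4 ± 22.4 in DDC and 12.4 ± 2.46 in Control, H2-Ab1 with 40.9 ± 15.8 in DDC and 9.63 ± 1.78 in Control, and H2-Aa with 35.5 ± 12.6 in DDC and 6.74 ± 1.04 in Control. Neighbours among these 3 chains had overlapping ranges within each group, although every library ranked them in this order. The peptide editor came next: H2-DMb1 had 16.4 ± 3.32 FPKM in DDC and 2.11 ± 0.562 FPKM in Control, and H2-DMa had 6.07 ± 1.69 FPKM in DDC and 0.774 ± 0.0615 FPKM in Control. H2-DMb1 overlapped H2-Aa in DDC livers and lay below it in Control livers.

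The costimulatory ligands and the regulator were scarcest. Cd86 had 3.23 ± 0.584 FPKM in DDC and 0.613 ± 0.166 FPKM in Control, and its range overlapped that of H2-DMa in both groups. Cd80 had 0.990 ± 0.346 FPKM in DDC and 0.151 ± 0.0364 FPKM in Control. Ciita had 0.681 ± 0.283 FPKM in DDC and 0.107 ± 0.0524 FPKM in Control, and exceeded Cd80 in 2 of 4 libraries of each group. FPKM follow library totals and not TMM scaling, so the distance between groups is wider on this scale.

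**Figure D2:**
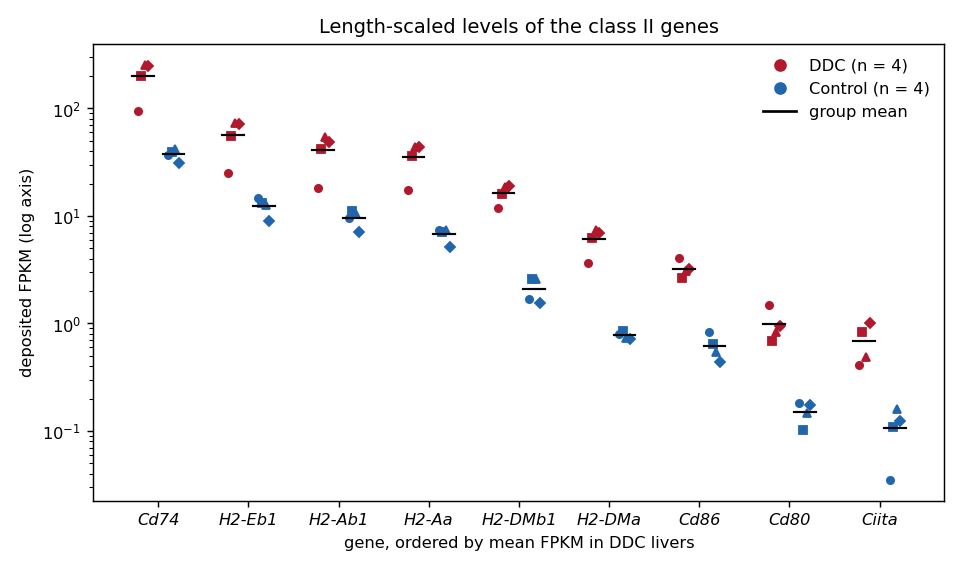
Deposited FPKM (y axis, log scale) of the 9 genes, ordered by their DDC mean, in DDC (red) and Control (blue) livers; points are libraries, marker shapes replicate numbers as in the CPM panels, and lines group means. Cd74 led at 199 FPKM in DDC and 37.4 FPKM in Control, and Ciita was last at 0.681 FPKM in DDC and 0.107 FPKM in Control.

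Leukocyte transcripts rose alongside. Ptprc, the pan-leukocyte phosphatase CD45, had 50.6, 49.7, 52.3 and 51.9 CPM in DDC 1 to 4, against 16.9, 14.5, 17.3 and 14.8 CPM in Control 1 to 4. DDC 1 was level with the other DDC libraries for Ptprc, unlike for the class II chains. The Ptprc log2 fold change was 1.69 (SE 0.07, edgeR adjusted p = 1.24e-07), inside the 1.47 to 2.34 of the 9 genes. Each gene was therefore also read as a ratio to Ptprc in its own library, a measure that no scaling alters. Cell number was not measured, and the part of leukocyte number in the rise was not tested.

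Relative to Ptprc, the class II chains and Cd74 did not differ detectably over all 8 libraries, and how DDC livers stood depended on DDC 1. The CPM of H2-Aa over that of Ptprc was 1.11, 2.38, 2.62 and 2.65 in DDC 1 to 4, against 2.13, 2.35, 2.06 and 1.74 in Control 1 to 4. DDC 2 to 4 lay above every Control library and DDC 1 below every one. The mean log2 ratio differed by 0.01 (exact two-sided permutation p = 0.971, n = 4 each), and by 0.31 without DDC 1 (exact permutation p = 0.0571, 0.133 after adjustment). H2-Ab1 per Ptprc was 0.791, 1.87, 2.17 and 2.01 in DDC 1 to 4, against 1.89, 2.51, 1.99 and 1.62 in Control 1 to 4 (exact permutation p = 0.571). DDC 1 was below every Control library here too, but DDC 2 to 4 lay among them. Cd74 per Ptprc was 2.66, 5.86, 6.71 and 6.56 in DDC livers, against 4.78, 5.72, 5.15 and 4.65 in Control livers, and its mean log2 ratio differed by 0.02 with DDC 1 (exact permutation p = 0.971) and by 0.33 without it (exact permutation p = 0.0571, 0.133 after adjustment). H2-Eb1 differed by -0.22 with DDC 1 and by 0.12 without it (exact permutation p = 0.800 and 0.486).

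The ratios of the H2-DM genes to Ptprc were higher on average in DDC livers, with overlap between the groups. H2-DMb1 per Ptprc was 0.336, 0.464, 0.492 and 0.511 in DDC livers, against 0.219, 0.381, 0.322 and 0.234 in Control livers. All DDC libraries but DDC 1 lay above all Control libraries. The mean log2 ratio differed by 0.66 (exact permutation p = 0.0571, 0.267 after Benjamini-Hochberg adjustment over the 14 ratios computed). H2-DMa per Ptprc was 0.342 ± 0.0880 in DDC and 0.221 ± 0.0298 in Control (exact permutation p = 0.114, n = 4 each), and without DDC 1 the difference was 0.81 with an exact permutation p of 0.0286, the smallest that 3 against 4 allows, and 0.133 after adjustment. Ciita, Cd80 and Cd86 differed by 0.44, 0.36 and 0.11 in mean log2 ratio to Ptprc, with exact permutation p-values of 0.571, 0.314 and 0.629.

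**Figure D3:**
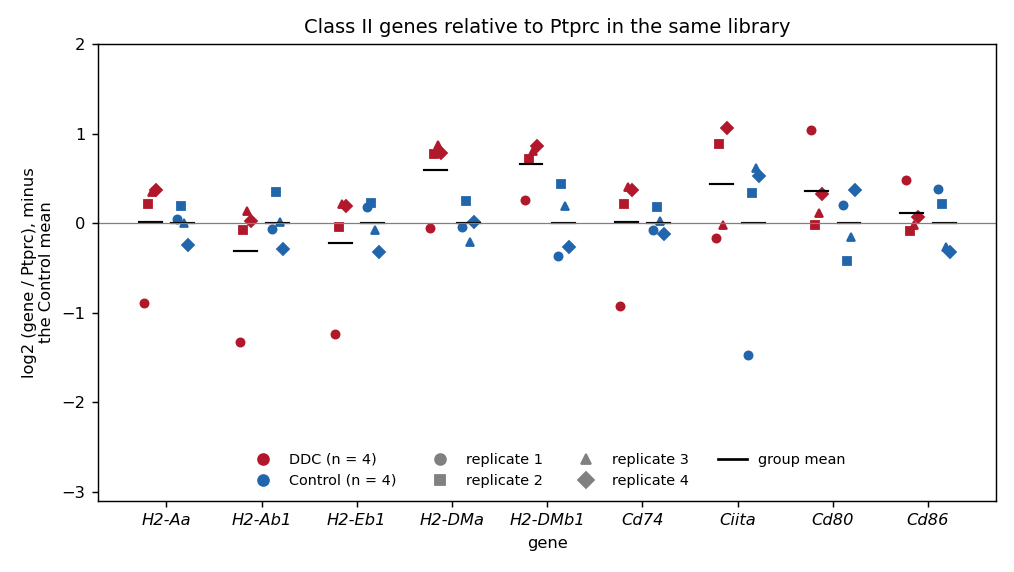
Log2 ratio of each class II gene to Ptprc in the same library, minus the Control mean (y axis), with DDC libraries in red left of Control libraries in blue, shapes for replicate numbers and lines for group means. H2-DMa and H2-DMb1 sat highest among the class II genes, at mean differences of 0.59 and 0.66, and DDC 1 was the lowest point of H2-Aa, H2-Ab1, H2-Eb1 and Cd74.

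Within the pathway, 2 ratios separated the groups fully. H2-DMa per H2-Aa was 0.190, 0.158, 0.153 and 0.143 in DDC 1 to 4, against 0.1001, 0.111, 0.0924 and 0.127 in Control 1 to 4, a 1.498-fold difference in ratio. Cd74 per H2-Ab1 was 3.36, 3.13, 3.09 and 3.27 in DDC livers, against 2.52, 2.28, 2.59 and 2.87 in Control livers, a 1.26-fold difference. Both had an exact permutation p of 0.0286, the smallest that 4 against 4 allows, and 0.200 after adjustment over the 14 ratios. An adjusted p under 0.05 would need more than 8 ratios at that smallest p. DDC 1 did not stand low in these ratios. H2-Ab1 was the chain with the smallest rise: the log2 fold change was 1.79 for Cd74, against 1.47 for H2-Ab1, 1.56 for H2-Eb1 and 1.77 for H2-Aa. Ratios of Cd74 to H2-Aa and to H2-Eb1 were not computed. H2-DMb1 per H2-DMa, H2-Eb1 per H2-Ab1 and Cd86 per Cd80 overlapped between groups, with exact permutation p-values of 0.714, 0.343 and 0.457.

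The 9 genes did not vary as a block among libraries of one diet. DDC 1 held 0.429 times the mean of the other 3 DDC libraries for H2-Aa, 0.386 for H2-Ab1, 0.381 for H2-Eb1, 0.411 for Cd74, 0.540 for H2-DMa, 0.677 for H2-DMb1 and 0.539 for Ciita. For Cd80 it held 1.83 times and for Cd86 1.39 times that mean. The median of 14824 genes was 1.00, and 3.64% of them had a lower ratio than H2-Eb1. Other myeloid genes in DDC 1 ran from 0.578 times for Ccr2, the monocyte chemokine receptor, through 0.882 for Lyz2, a lysozyme, and 1.16 for Ctss, to 2.15 times for Timd4, a receptor of resident Kupffer cells. Control 4 held 0.735 times the mean of the other 3 Control libraries for H2-Aa, 0.702 for H2-Ab1 and 0.676 for H2-Eb1, and there Cd86, at 0.669, was low with the chains while Cd80, at 1.26, was not.

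**Figure D4:**
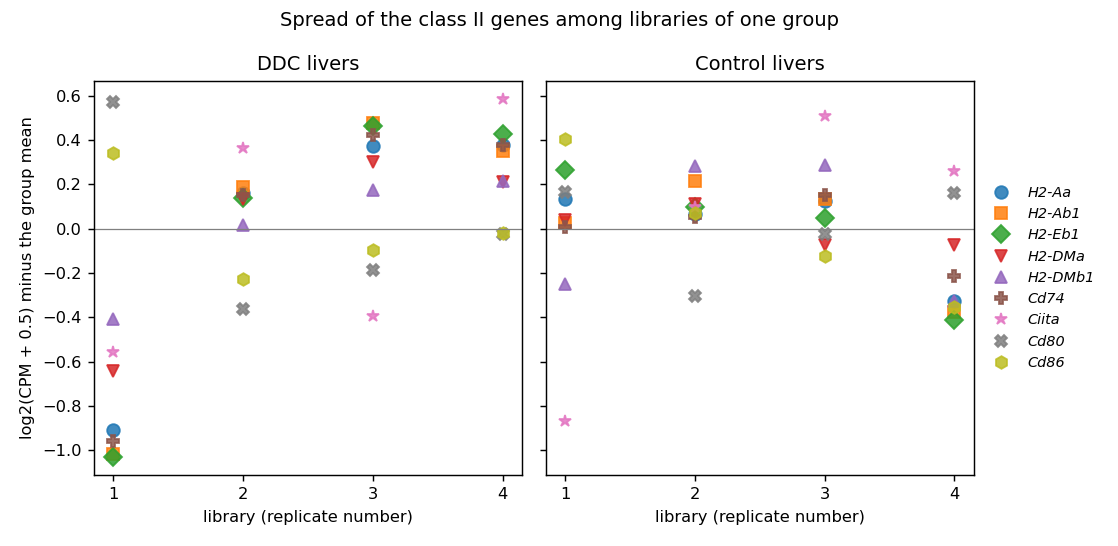
Deviation of log2(CPM + 0.5) from the group mean (y axis) for the 9 genes in each DDC library (left) and Control library (right), a symbol per gene. In DDC 1 the chains, Cd74, H2-DM and Ciita lay below their means and Cd80 and Cd86 above; in Control 4 the chains, H2-DMb1 and Cd86 lay well below their means.

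After centring within each diet, H2-Aa correlated with H2-Eb1 at r = 0.992 and with Cd74 at r = 0.987 over the 8 libraries, while H2-Ab1 and Cd80 had r = -0.855. These r values share the same libraries and lean on DDC 1 and Control 4. Without both, over 6 libraries, r was 0.871 and 0.850 for the first pairs, and -0.163 for H2-Ab1 with Cd80. Ciita correlated weakly with the chains over 8 libraries, at r = 0.209 to 0.345.

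Genes most like the class II chains were sought among 14836 genes by r to the centred mean of H2-Aa, H2-Ab1, H2-Eb1 and Cd74 over 8 libraries. H2-DMa took place 52 (r = 0.961), H2-DMb1 place 1124, Ciita place 4185, Cd86 place 10706 and Cd80 place 14110. Outside the 9 genes the top 10 were BC049715, Cfap157, Lmntd2, Dnah2, Nectin3, Kif2c, Chd5, Prss37, Cacna1h and Dnali1, at r = 0.994 down to 0.975. Dnah2 encodes a dynein heavy chain of cilia and Kif2c a mitotic kinesin. Dnah2 had 1.38, 3.78, 4.13 and 4.42 CPM in DDC 1 to 4, against 1.01, 0.804, 0.989 and 0.475 CPM in Control 1 to 4. Nectin3, an adhesion molecule, fell between diets (log2 fold change -0.93) and yet followed the chains within them. Without DDC 1 and Control 4 the r of these 10 ran from 0.178 to 0.786, so the likeness leaned on those libraries.

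Most genes tested for loading and turnover of class II were higher in DDC livers. Of 10 such genes tested, 7 were higher, 2 lower and 1 not called, against 30.2% higher and 26.6% lower over all genes, with a median log2 fold change of 1.599. Ctss, the cathepsin that makes the last cuts in the invariant chain, rose to 428 ± 34.6 CPM in DDC livers, against 35.9 ± 4.22 CPM in Control livers (log2 fold change 3.58, SE 0.11, edgeR adjusted p = 3.70e-08). Cd83, which slows the loss of class II and CD86 from the surface, had 10.4 ± 0.854 CPM in DDC and 1.28 ± 0.221 CPM in Control (log2 fold change 3.02). Legumain (Lgmn) and the lysosomal thiol reductase Ifi30 rose by 2.32 and 1.75 on the log2 scale. Among libraries of one diet Ctss, Lgmn and Ifi30 did not follow the chains. Their r to the centred chain mean over 8 libraries was -0.60, -0.72 and -0.45. Without DDC 1 and Control 4 it was -0.096, -0.37 and -0.23, so the negative r leaned on those libraries. Cd83 had r = 0.37 over 8 libraries and 0.40 without those libraries.

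The ubiquitin ligases that remove class II from the surface moved apart. Marchf1, the form of immune cells, rose to 10.4 ± 0.545 CPM in DDC, against 2.21 ± 0.880 CPM in Control (log2 fold change 2.23, SE 0.29, edgeR adjusted p = 0.000125). Marchf8, the widely expressed form, fell to 62.7 ± 0.756 CPM in DDC, against 125 ± 6.59 CPM in Control (log2 fold change -0.99, SE 0.05, edgeR adjusted p = 4.53e-07). H2-Ob, a chain of the H2-DM inhibitor, had 0.477, 0.497, 0.512 and 0.499 CPM in DDC livers, against 1.88, 0.843, 1.26 and 0.434 CPM in Control livers. Its groups overlapped, and its call as lower (edgeR adjusted p = 0.0477) ended, at adjusted p-values of 0.0660 to 0.154, when any DDC library, Control 1 or Control 3 was left out. H2-Oa, its partner, was not called, with 0.368 ± 0.104 CPM in DDC and 0.197 ± 0.0944 CPM in Control.

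Among the DNA-binding partners of Ciita the shares called were near those of all genes. Of 7 tested, 2 rose, 2 fell and 3 were not called, against 30.2% higher and 26.6% lower over all genes, with a median log2 fold change of -0.26. Without Control 2, 5 of the 7 were called lower, as were 5182 of the 20494 genes then tested. Rfx5 had 15.1 ± 1.53 CPM in DDC and 6.41 ± 1.12 CPM in Control (log2 fold change 1.23), and Nfya had 24.3 ± 1.55 CPM in DDC and 10.9 ± 0.825 CPM in Control (log2 fold change 1.16). Rfxap and Nfyc were called lower at -0.57 and -0.26, and both turned positive, 0.05 and 0.37, with library totals alone. Under that scaling 5 of the 7 genes rose and 0 fell, where 58.9% of all genes were higher.

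Genes of the interferon-gamma axis, which induces Ciita, were mostly higher: 10 of 12 tested rose, 0 fell and 2 were not called (median log2 fold change 1.47). Over all genes 30.2% were higher and 26.6% lower. Cxcl10, a chemokine for activated T cells, had 14.4 ± 3.25 CPM in DDC and 2.65 ± 0.143 CPM in Control (log2 fold change 2.45, SE 0.17, edgeR adjusted p = 1.68e-06). Gbp2, a guanylate-binding protein, rose by 2.28 and the transcription factor Irf1 by 0.81 on the log2 scale. Ifng itself was too scarce to test, at 0.142, 0, 0 and 0.0760 CPM in DDC 1 to 4, against 0, 0, 0.0190 and 0 CPM in Control 1 to 4.

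Other costimulatory and coinhibitory genes rose in 8 of 10 tested and fell in 0, against 30.2% higher and 26.6% lower over all genes. Their median log2 fold change was 1.73. Cd274, which encodes the coinhibitory ligand PD-L1, had 14.6 ± 0.907 CPM in DDC and 1.87 ± 0.311 CPM in Control (log2 fold change 2.97, SE 0.14, edgeR adjusted p = 2.16e-07). Cd40, the receptor through which helper T cells license presenting cells, had 2.30 ± 0.414 CPM in DDC and 0.348 ± 0.0950 CPM in Control (log2 fold change 2.72). Activating and inhibitory ligands were both among the higher genes.

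**Figure D5:**
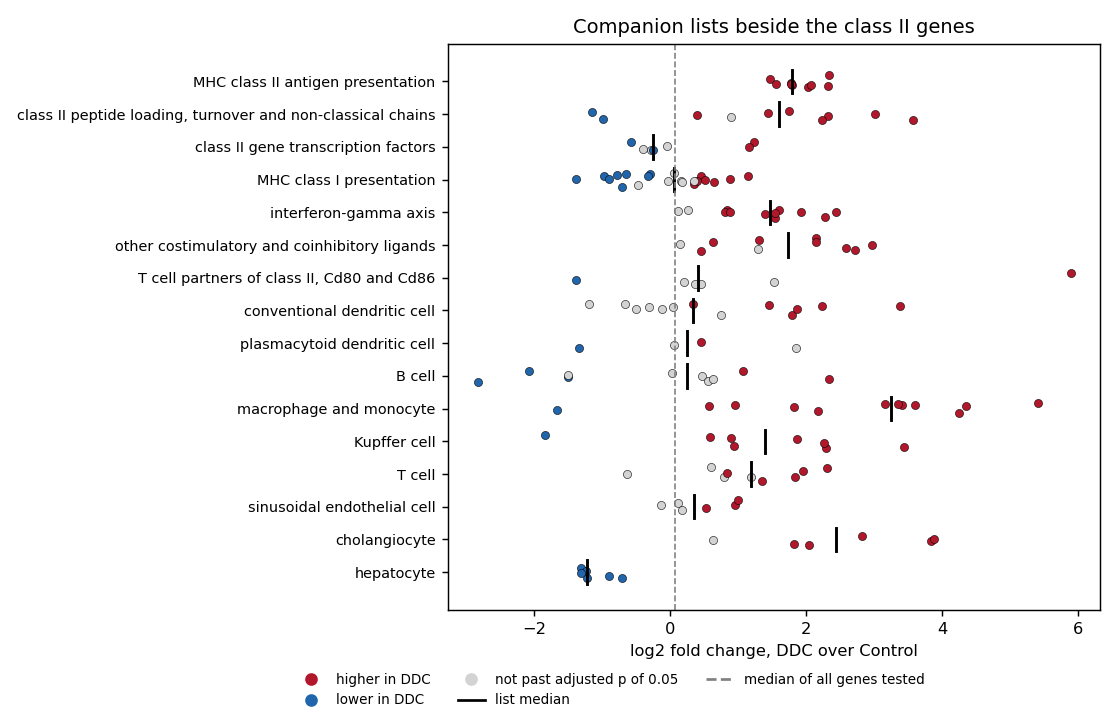
Log2 fold change, DDC over Control (x axis), of each tested gene in the 9 class II genes and in 15 companion lists (y axis): red higher, blue lower, grey not called, black bars list medians, dashed line the all-gene median (0.07). The class II genes and 7 of 10 loading and turnover genes lay right of the line in red; dendritic and B cell markers were spread on both sides.

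Markers of cells that carry class II did not all move alike. Over all genes 30.2% were higher and 26.6% lower. Of 12 macrophage and monocyte markers 11 rose and 1 fell (median log2 fold change 3.25), and their summed level was 1283 to 1374 CPM in DDC libraries and 360 to 433 CPM in Control libraries. Trem2, a receptor of lipid-handling macrophages, Cx3cr1 and Itgax rose by 5.41, 4.36 and 4.25 on the log2 scale. Of 8 Kupffer cell markers 7 rose and 1 fell (median log2 fold change 1.40), summing to 919 to 1296 CPM in DDC libraries and 329 to 628 CPM in Control libraries. Marco, a scavenger receptor, had 254 ± 72.2 CPM in DDC and 23.4 ± 18.1 CPM in Control (log2 fold change 3.44, and 4.14 without Control 4). C6, a complement gene, was the one called lower, and was not called on log2 FPKM (limma adjusted p = 0.0652). It made up much of the Kupffer sum in Control 2 (277 of 512.5 CPM) and Control 4 (311 of 628 CPM), and had 53.9 ± 7.99 CPM in DDC. DDC 1, low for the class II chains, was highest for the Kupffer sum and within the DDC range for the macrophage sum, at 1287 CPM.

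Conventional dendritic cell markers rose in 6 of 13 and fell in 0 (median log2 fold change 0.34). Of all genes 30.2% were higher and 26.6% lower. The summed level of these markers was 57.1 to 58.2 CPM in DDC and 28.5 to 33.3 CPM in Control. Irf8, a transcription factor of dendritic cells that monocytes also express, had 25.9 ± 1.27 CPM in DDC and 9.50 ± 0.657 CPM in Control (log2 fold change 1.45). Of markers more restricted to these cells, Batf3 (log2 fold change 1.80) and Clec9a (0.34, edgeR adjusted p = 0.0392) were higher. The Clec9a call was lost on leaving out any library other than Control 4 (adjusted p between 0.0630 and 0.103). Flt3, Zbtb46 and Xcr1 were not called: Flt3 had 0.785 ± 0.233 CPM in DDC and 0.976 ± 0.309 CPM in Control, and Zbtb46 had 6.81 ± 0.591 CPM in DDC and 6.64 ± 1.71 CPM in Control. Plasmacytoid dendritic cell markers summed to 39.4 to 92.3 CPM in DDC and 11.2 to 55.7 CPM in Control, much of it Ly6d (42.3 ± 21.5 CPM in DDC and 11.8 ± 20.8 CPM in Control), and 1 of 4 rose and 1 fell (median log2 fold change 0.25).

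B cell markers rose in 2 of 10 and fell in 3 (median log2 fold change 0.25), or rose in 4 and fell in 2 with library totals alone. Of all genes 30.2% were higher and 26.6% lower, and 58.9% were higher with library totals alone. Ms4a1, a defining B cell gene that encodes CD20, was near 0 in DDC livers, with 0.0736 ± 0.0216 CPM in DDC and 0.317 ± 0.102 CPM in Control (log2 fold change -2.07, SE 0.54, edgeR adjusted p = 0.00855). That call was lost on log2(FPKM + 1) and log2(FPKM + 0.1) (limma adjusted p = 0.156 and 0.0667). It was also lost with the replicate block and with library totals without DDC 1 (edgeR adjusted p = 0.0549 and 0.0955). Summed over the list, the level was nonetheless 10.3 to 12.6 CPM in DDC and 4.94 to 7.34 CPM in Control, with Cd22 alone at 6.10 ± 1.35 CPM in DDC and 1.21 ± 0.103 CPM in Control. T cell markers rose in 5 of 9 and fell in 0 (median log2 fold change 1.19), or rose in 3 without DDC 3 or without Control 1, summing to 10.5 to 16.3 CPM in DDC and 4.95 to 7.21 CPM in Control. The part of each cell type in the class II rise was not tested.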

How the data were processed

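The authors deposited unnormalized whole-number counts of 55401 genes, and the deposited FPKM are the authors' length- and depth-scaled values for 33467 genes; their counts were equal. The submitters' processing notes name cutadapt, FastQC, HISAT2, StringTie and DESeq2, and GRCm38 and mm10, without versions or roles. The members, lists and promoter letters were chosen with earlier results of these data known. The counts were fitted in edgeR 4.0.16 (R 4.3.3) with TMM, filterByExpr (minimum count 10), robust quasi-likelihood tests, Benjamini-Hochberg adjustment over 19535 genes, threshold 0.05, two-sided, no covariate. SE is the log2 fold change over the square root of F. Libraries held 61179103 to 81664058 counts; p-values measure the spread between the 4 mice per group. Ratios of CPM within a library, with nothing added, were compared on the log2 scale by exact permutation over 70 assignments. Named genes are the 9, Ptprc, up to 2 called genes per list and direction at 1 CPM or more by fold, and the 10 most alike; other list members named were chosen after their values were seen. Transcript overlaps came from GENCODE M21. Libraries of a group differed beyond sampling noise (chi-square per degree of freedom 13.5 to 220), so none was a duplicate. On simulated counts (18964 genes, 200 changed) the fit called 41, 25 and 8 of 50 genes with true folds of 4, 2 and 1.5. Of its 103 calls 5 were false. The simulation changed a far smaller share of genes than the 56.8% called in the data, so these rates do not carry over to the data. Alternatives were other scalings, filters, DESeq2 1.42.0, limma 3.58.1 on log2 FPKM, omitted libraries and a replicate block; 0.1 CPM added to the ratios and ratios of FPKM were tried as well. Some list members are not reported here.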

Additional observations from a re-analysis of the deposited data

Results flagged for a closer look

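Among 142 groups of 4 libraries tested for a single value far from the others, 16 stood out, 1 of them among the 18 groups of the 9 class II genes; chance alone gives about 1 in 20 groups. The class II value was H2-Aa in Control 4, at 25.9 CPM, where the other Control libraries had 34.2 to 35.9 CPM. Among the ratios, H2-DMa per Ptprc in DDC 1 was 0.211, where the other DDC libraries had 0.376 to 0.402.

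Of the companion genes, Ctss had 29.6 CPM in Control 2 (others 37.5 to 38.2) and Rfxap had 13.7 CPM in Control 3 (others 10.7 to 10.9). Pdcd1 had 0.0784 CPM in Control 2 and 0 in the other Control libraries. Tcf4 had 17.95 CPM in DDC 1 (others 14.2 to 14.5), Bank1 had 1.94 CPM in Control 1 (others 0.970 to 1.06), and Fcgr2b had 56.7 CPM in DDC 2 (others 73.3 to 76.5). Marco had 50.5 CPM in Control 4, above 12.5 to 15.3 in the others, and Lyve1 had 7.39 CPM in Control 4, above 5.13 to 5.33. Cftr had 12.1 CPM in DDC 3 (others 8.85 to 9.27) and Ttr 2966 CPM in DDC 1 (others 1909 to 2086).

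Among the genes most like the chains, BC049715 had 0.723 CPM in Control 4 (others 1.07 to 1.08). Chd5 had 2.44, Prss37 0.323 and Cacna1h 1.12 CPM in DDC 1, each below its other DDC libraries; these genes were picked for following the chains, which were low in DDC 1.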

How the results depend on the processing

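All 9 class II genes stayed higher under all 18 alternatives. Over all genes, library totals alone gave 11505 higher and 1750 lower (86.8% of calls higher, against 53.1% with TMM), limma on log2(FPKM + 1) 11987 and 1815, on log2(FPKM + 0.1) 11976 and 1826, and library totals without DDC 1, chosen after seeing the data, 11854 and 1919. Rfxap reversed to 0.0526, 0.0396, 0.0490 and 0.0757 and Nfyc to 0.37, 0.31, 0.35 and 0.33 under these 4. Nfyc was then called higher (edgeR adjusted p = 0.00195 and 0.00537, limma adjusted p = 0.00201 and 0.00196), and Rfxap was not called. The median log2 fold change over all genes was 0.70, 0.31, 0.60 and 0.72 under these 4, against 0.07 with TMM. The cause of the reversals was not tested. Leaving out single libraries gave log2 ratio differences to Ptprc of -0.11 to 0.31 for H2-Aa, -0.46 to 0.0243 for H2-Ab1, -0.36 to 0.12 for H2-Eb1, -0.11 to 0.33 for Cd74, -0.0524 to 0.65 for Ciita and -0.0129 to 0.24 for Cd86, and -0.0377 to 0.20 for H2-DMb1 per H2-DMa. Same-numbered libraries did not deviate together (r = -0.21, -0.18, 0.03 and -0.05), so no pairing by number was seen, though these r cannot exclude one. With the replicate block 4810 genes were higher and 4654 lower, and H2-Eb1 kept its call at an edgeR adjusted p of 0.0271. Ciita and Cd80 had the fewest reads, 23 and 25 in their lowest libraries; their log2 fold changes shrank to 0.59 and 0.78 on log2(FPKM + 1).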

Other observations

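Class I presentation, the route for peptides made inside the cell, had genes called in both directions. Of 21 genes tested 7 were higher, 8 lower and 6 not called, against 30.2% higher and 26.6% lower over all genes, and the median log2 fold change was 0.05. Under library totals alone 14 were higher and 3 lower, where 58.9% of all genes were higher, so the split depends on the scaling. H2-K1, a classical class I heavy chain, had 848 ± 45.1 CPM in DDC and 1671 ± 80.6 CPM in Control (SD, n = 4 each; log2 fold change -0.98, edgeR adjusted p = 1.74e-06). H2-D1, the other classical chain, had 868 ± 37.4 CPM in DDC and 885 ± 26.9 CPM in Control and was not called. Tap1, a peptide transporter subunit, rose by 0.88 on the log2 scale. The heavy chains resemble each other in sequence, so the split of reads among them is uncertain.

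The T-cell receptors that meet class II, Cd80 and Cd86 were scarce, with 5.15 to 6.07 CPM summed in DDC and 4.11 to 6.89 CPM in Control. Of 6 tested, 1 was higher and 1 lower (median log2 fold change 0.41), or 3 and 0 with library totals alone. Over all genes 30.2% were higher and 26.6% lower, and 58.9% were higher with library totals alone. Cd4 had 1.05 ± 0.169 CPM in DDC and 0.769 ± 0.242 CPM in Control, and Cd28 had 0.825 ± 0.0893 CPM in DDC and 0.642 ± 0.192 CPM in Control; neither was called. Pdcd1, which encodes PD-1, had 1.27 ± 0.405 CPM in DDC and reads in 1 Control library, so no fold is given. Lag3, a class II receptor, was lower, at 1.18 ± 0.203 CPM in DDC and 3.08 ± 1.52 CPM in Control (log2 fold change -1.38, edgeR adjusted p = 0.0101), and was not called with library totals alone (adjusted p = 0.0999).

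Of markers of other liver cells, sinusoidal endothelial genes rose in 3 of 6, where 30.2% of all genes were higher. They summed to 173 to 214 CPM in DDC and 125 to 152 CPM in Control. With library totals alone 6 of 6 rose, where 58.9% of all genes were higher. Cholangiocyte genes rose in 5 of 6, with 699 to 1073 CPM summed in DDC and 66.8 to 145 CPM in Control. Most of the sum in DDC was Spp1 (728 ± 149 CPM in DDC and 50.8 ± 1.92 CPM in Control).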
